A study of Caenorhabditis elegans with 18 samples.

Results

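In whole Caenorhabditis elegans larvae, 78 genes had their highest level at 20 °C in the mutant hsf-1(sy441). They were chosen from 20275 genes by their levels at 20 °C alone. The mutant mean had to be at least 5 CPM, which is fragments of a gene per 1e6 fragments of its scaled library, and at least 2 times the means of the wild type and of a strain carrying an hsf-1::gfp transgene. Every mutant library at 20 °C also had to lie above every library of the other strains at 20 °C. F35H8.7 (wee-1.1) and M142.1 (unc-119) were left out by the same rule. Because these values chose the genes, the levels at 20 °C are given below as a description, and tests compare only groups at 34 °C. The main fit takes its estimate of spread from all 18 libraries, those at 20 °C included, so a fit of the 9 libraries at 34 °C alone is also given beside the counts. With CPM scaled by library totals alone the rule found 114 genes, among them all 78.

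The study sequenced polyadenylated RNA of mid-L2 larvae, synchronised by hatching in buffer and grown on bacteria at 20 °C. Plates were either collected directly or held for 30 min in a water bath at 34 °C. The strains were N2, the wild type, PS3551, which carries hsf-1(sy441), and AM1062, here the transgene strain. AM1062 also carries hsf-1(sy441) on chromosome I, together with the insertion rmSi1[hsf-1::gfp] on chromosome II and unc-119(ed9) on chromosome III. The labels do not give the promoter of the transgene. There were 3 libraries in each of 6 groups, and no label tells if replicates were grown separately. The p-values therefore refer to library-to-library spread, which may be technical. The 18 libraries held 14.9 to 32.3 M fragments of the genes used. In whole animals, fewer cells of a type and less RNA per cell cannot be told apart.

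HSF-1 is the heat shock transcription factor, which binds heat shock elements and drives chaperone genes under stress, and in C. elegans it is also required for larval development and normal lifespan. The sy441 allele is a premature stop that removes part of the activation domain. Several families that appear below handle foreign or toxic small molecules: cytochrome P450 enzymes oxidise them, UDP-glucuronosyltransferases and glutathione S-transferases attach a sugar or glutathione, and P-glycoproteins of the ABC transporter family export them. Others, the C-type lectins and the dod genes with CUB-like domains, are known in worms mainly from responses to pathogens and from insulin signalling.

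The hsf-1 transcript itself is no check of the mutant label, since the allele leaves the gene transcribed. Its level at 20 °C was 39.5 ± 2.17 CPM in N2, 98 ± 4.93 CPM in hsf-1(sy441) and 108 ± 5.63 CPM in the transgene strain (mean ± SD, n = 3, as for every such value below). At 34 °C it was 33.6 ± 4.25, 91.9 ± 6.95 and 103 ± 7.66 CPM. Here hsf-1 was higher in hsf-1(sy441) than in N2 by a log2 fold change of 1.45 (adjusted p = 9.7e-08), and the difference to the transgene strain was −0.17 (adjusted p = 0.26). Counts in the transgene strain may hold reads of the transgene. The level of unc-119 at 20 °C was 18.1 CPM in N2, 19.4 CPM in hsf-1(sy441) and 2.96 CPM in the transgene strain, which carries the mutation in it.

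Among the 78 genes, 73 are annotated as protein coding, 3 as pseudogenes (K01A2.3, F13H6.4 and R07C12.2) and 1, Y9D1A.1, as a long noncoding RNA. The identifier F41B5.6 was not matched. Only 26 have a letter name, and 52 are known by a sequence name alone, so most have no role that can be given. Their mutant means at 20 °C ran from 5.11 to 4404 CPM with a median of 14.8 CPM. For 27 genes the mean was under 10 CPM, and for 7 it was 100 CPM or more. The ratio of the mutant mean to the higher of the other strain means ran from 2.01 to 13.1 with a median of 2.63. It was 3 or more for 27 genes and under 2.5 for 33.

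Levels just inside the threshold of 2 times were those of F49F1.5, with 26.7 CPM in the mutant and 13.3 CPM in the transgene strain, and of F54C1.1 and Y106G6D.4, each with a ratio of 2.02. Just outside it lay tmem-189, skpo-3 and unc-75, whose ratios were 2.0, 1.98 and 1.98. The lowest mutant mean inside the level threshold was 5.11 CPM, in drd-50, and the highest outside it was 4.99 CPM, in F19B10.13. The left-out wee-1.1 had 0.142 CPM in N2, 10.6 CPM in the mutant and 0.218 CPM in the transgene strain.

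At 34 °C, in libraries the rule had not used, the mutant mean was again the highest of the 3 strains for all 78 genes. How many of all genes tested had this order was not counted. Over the members, libraries of the same number and strain at 20 °C and 34 °C deviated together. Their correlations were 0.46 to 0.87 in the mutant, 0.40 to 0.76 in N2 and 0.40 to 0.83 in the transgene strain. The libraries at 34 °C may therefore not be independent of those that chose the genes. Against N2, 61 of the 78 were called higher at an adjusted p under 0.05 (78.2%, against 14.8% of the 14219 genes tested) and 0 were called lower, where 14.2% of all genes were. In the 9 libraries at 34 °C alone, 47 were called higher, beside 6.33% of all genes. Adjusted p-values are from edgeR's quasi-likelihood test with Benjamini-Hochberg adjustment over all genes tested. The members' median log2 fold change was 1.78, with a range of 0.41 to 4.25, and that of all genes was 0.02. With library totals alone these medians were 1.92 and 0.15, a shift of all genes in which 69.3% of all calls were higher, against 51.2% with the main scaling. At an unadjusted p under 0.05, 71 members were higher than N2 (21.6% of all genes were) and 58 higher than the transgene strain (13.8%), and 0 were lower than either, as in DESeq2's adjusted calls. All 78 genes passed the filter on low counts, also when it was applied to the libraries at 34 °C alone.

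Against the transgene strain at 34 °C, 47 of the 78 were called higher (60.3%, against 5.24% of all genes) and 0 lower (3.9% of all genes). In the 9 libraries alone, 33 were called higher, beside 1.26% of all genes. The median log2 fold change was 1.34, with a range of 0.11 to 2.72, beside 0.03 for all genes. The same mutant libraries enter this comparison and that against N2. All 47 genes were also called against N2, so that 14 were called against N2 alone and 17 against neither. Of all genes tested, 4.32% were called higher in the mutant against both strains.

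Per library, 71 of the 78 had every mutant library at 34 °C above every N2 library (21.1% of all genes did), and 55 had every mutant library above every transgene strain library (15.5% of all genes). Against both strains 54 members were separated in this way, beside 10.7% of all genes. The complete rule, applied to the libraries at 34 °C, was met by 45 members (57.7%), beside 0.57% of all genes. Of the other 33, 18 had a ratio under 2, 24 had libraries that overlapped, and 7 were under 5 CPM, and a gene could fail in several ways.

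**Figure D1:**
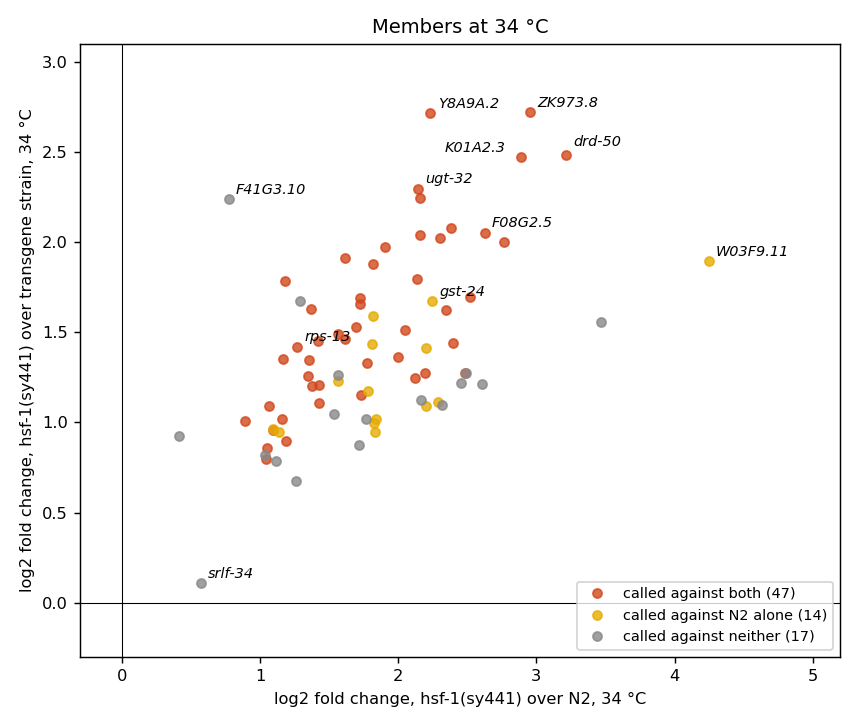
Each point is a member, placed by its log2 fold change at 34 °C over N2 (horizontal axis) and over the transgene strain (vertical axis); colours mark whether it was called against both strains (47), against N2 alone (14) or against neither (17). All points lie above 0 on both axes, from 0.41 (srp-2) to 4.25 (W03F9.11) on the horizontal axis and from 0.11 (srlf-34) to 2.72 on the vertical axis; the axes share the mutant libraries.

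The gene with the largest ratio at 20 °C was F08G2.5, a protein-coding gene without a letter name on chromosome II (13832784 to 13833562, build ce10, as for all positions). At 20 °C its libraries held 6.87, 5.83 and 3.12 CPM in N2, 4.96, 5.62 and 6.04 CPM in the transgene strain, and 77.4, 71.2 and 68.6 CPM in the mutant. At 34 °C they held 29.6, 31.1 and 32.5 CPM in N2, 47.4, 38.5 and 52.7 CPM in the transgene strain, and 181, 211 and 183 CPM in the mutant. The gene was higher after heat shock in every strain, and the mutant libraries stood far above all others at each temperature. At 34 °C the log2 fold change of the mutant was 2.63 ± 0.20 (SE) over N2 (adjusted p = 7e-07) and 2.05 ± 0.20 over the transgene strain (adjusted p = 1.3e-05). The difference between the transgene strain and N2, 0.57, was not called (adjusted p = 0.14).

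ZK973.8 on chromosome I (4364907 to 4366996) had 3.07, 3.22 and 3.61 CPM in N2 at 34 °C, 3.49, 4.1 and 4.06 CPM in the transgene strain, and 29.2, 26 and 21.7 CPM in the mutant. The mutant was 7.76-fold over N2 (adjusted p = 3.4e-08) and 6.6-fold over the transgene strain (adjusted p = 1.1e-07). Its ratio at 34 °C, 6.61 to the higher other mean, was the highest of any member. At 20 °C the means were 1.23, 1.78 and 15.7 CPM in N2, the transgene strain and the mutant.

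K01A2.3, annotated as a pseudogene, shares a locus of 2 genes on chromosome II (314399 to 316907), where reads may be divided between them. It held 1.26, 1.43 and 1.67 CPM in N2 at 34 °C, 1.93, 1.87 and 2.03 CPM in the transgene strain, and 10.2, 10.4 and 11.8 CPM in the mutant. Its mutant libraries were separate from the rest, at 7.4-fold over N2 (adjusted p = 8.9e-07) and 5.54-fold over the transgene strain (adjusted p = 6.7e-06). R11E3.1, at 4.25, 3.53 and 5.08 CPM in N2, 6.7, 6.77 and 7.68 CPM in the transgene strain and 21.6, 17.4 and 26.2 CPM in the mutant, was ordered N2, transgene strain, mutant without overlap.

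Among the abundant members, several had nearly equal libraries within each group. Y119D3B.12 on chromosome III (1202540 to 1207321) had 60.3, 60.1 and 50.9 CPM in N2 at 34 °C, 65.9, 55.9 and 63.5 CPM in the transgene strain, and 261, 255 and 248 CPM in the mutant. Y38E10A.14 on chromosome II (12623123 to 12624479) had 65.1, 73.8 and 67.5 CPM, 67.3, 59.7 and 66.6 CPM, and 324, 302 and 294 CPM in the same order. In both genes N2 and the transgene strain overlapped and the mutant stood above 4-fold over each, with adjusted p-values of 2.9e-09 or less. Y17G7B.21 on chromosome II (11975683 to 11977595) had 58.2 ± 1.96 CPM in N2 at 34 °C, 59.8 ± 4.66 CPM in the transgene strain and 193 ± 5.02 CPM in the mutant. In its case the other strains were lower at 34 °C than at 20 °C, where they held 87.1 and 85.7 CPM, while the mutant held 179 CPM. C18H9.6 had 99.6 ± 15.6, 112 ± 6.47 and 323 ± 65.9 CPM at 34 °C and was called against N2 (adjusted p = 7.2e-07) and the transgene strain (adjusted p = 4e-06).

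**Figure D2:**
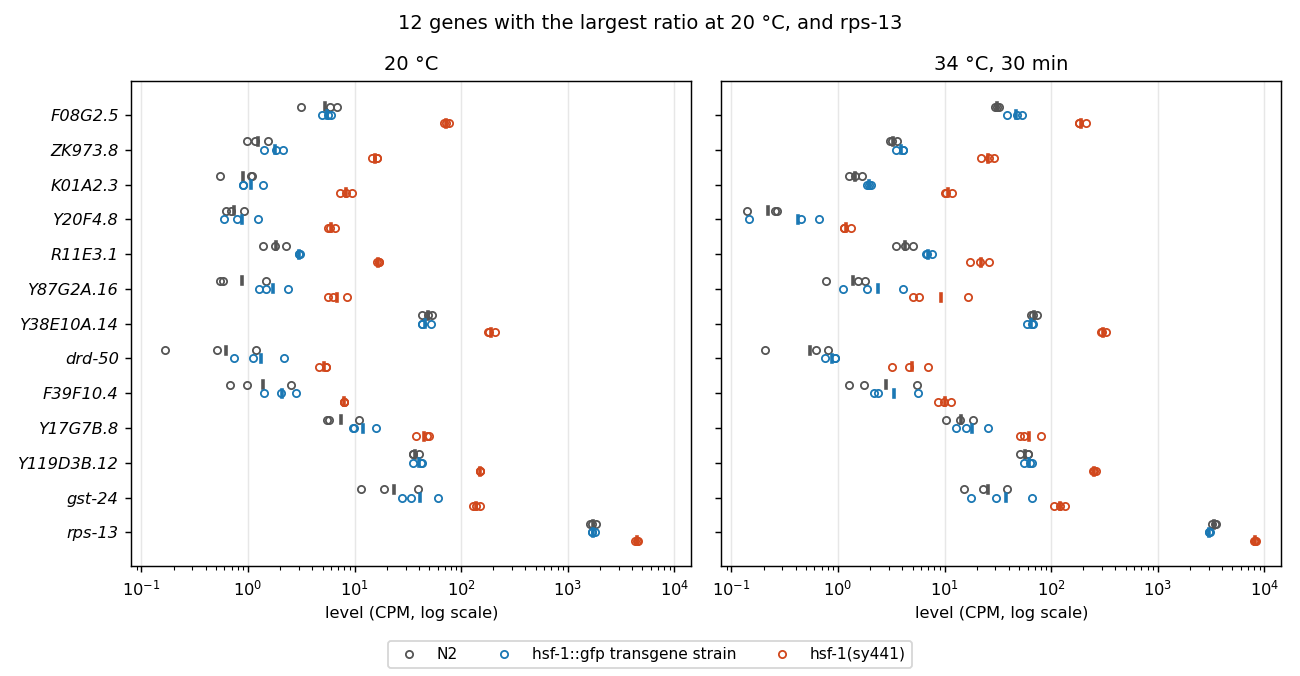
Level in CPM on a log scale of the 12 members with the largest ratio at 20 °C and of rps-13, in N2 (grey), the transgene strain (blue) and hsf-1(sy441) (red); circles are libraries and bars are group means, at 20 °C on the left and 34 °C on the right. The mutant libraries of F08G2.5 lie at 68.6 to 77.4 CPM at 20 °C and 181 to 211 CPM at 34 °C, with no library of another strain above 52.7 CPM.

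The most abundant member was rps-13, which encodes a protein of the small ribosomal subunit. On chromosome III (6374041 to 6374950), it had 1684, 1610 and 1828 CPM in N2 at 20 °C, 1790, 1679 and 1675 CPM in the transgene strain, and 4549, 4438 and 4224 CPM in the mutant. At 34 °C the libraries held 3434, 3192 and 3538 CPM in N2, 3088, 3048 and 3019 CPM in the transgene strain, and 8220, 8298 and 7987 CPM in the mutant. N2 and the transgene strain lay close together at each temperature, and no mutant library came near them. The log2 fold change at 34 °C was 1.27 ± 0.06 over N2 (adjusted p = 5.4e-09) and 1.42 ± 0.06 over the transgene strain (adjusted p = 2e-09). The FPKM values, which are per length, placed rps-13 first among the members in the mutant at 20 °C with 12779 FPKM, before C18H9.6 with 366 FPKM.

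No other cytosolic ribosomal protein gene was a member, out of 56 tested in a list drawn up after the values were seen. Of the other 55, 9 were called higher and 11 lower in the mutant than in N2 at 34 °C, and 1 higher and 0 lower than in the transgene strain. Their median log2 fold change over N2 was −0.03.

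The UDP-glucuronosyltransferase family gave 3 members of 64 genes tested. Of all 14219 genes tested 78 are members, which is the share to set beside the counts of this and the following lists. ugt-24 had 5.51, 5.12 and 7.09 CPM in N2 at 34 °C, 7.36, 8.07 and 10.4 CPM in the transgene strain, and 22.9, 25.4 and 25 CPM in the mutant. It was 4.14-fold over N2 (adjusted p = 4.8e-05) and 2.85-fold over the transgene strain (adjusted p = 9.5e-04). ugt-32 had 1.76, 1.6 and 7.79 CPM on average in N2, the transgene strain and the mutant at 34 °C, with the mutant 4.42-fold over N2 and 4.92-fold over the transgene strain (adjusted p = 6.4e-04 and 8e-04). ugt-29 had 9.44 ± 1.36, 9.32 ± 3.38 and 19.7 ± 6.49 CPM, a 2.09-fold difference to N2 (adjusted p = 0.012) and a 2.13-fold difference to the transgene strain (adjusted p = 0.022). The call against N2 was lost in 3 of 15 alternatives, among them those without replicate 1 of N2 or replicate 3 of the mutant, and that against the transgene strain in 4, with adjusted p-values up to 0.064 and 0.12. Of the other 61 genes of the family, 12 were called higher and 6 lower in the mutant than in N2 at 34 °C, and 6 higher and 1 lower than in the transgene strain.

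The glutathione S-transferase family gave 2 of 44. gst-24 on chromosome II (13610371 to 13611272) had 22.9, 15.3 and 38.2 CPM in N2 at 34 °C, 30.4, 17.7 and 65.6 CPM in the transgene strain, and 121, 106 and 134 CPM in the mutant. The mutant libraries were above all others, and the difference was called against N2 (4.74-fold, adjusted p = 0.0076) but not against the transgene strain (3.19-fold, adjusted p = 0.057). With replicate numbers as a block the latter adjusted p was 0.0012. gst-38 had 6.93 ± 1.82, 7.97 ± 4.93 and 15.2 ± 5.65 CPM in N2, the transgene strain and the mutant. Its call against N2 (adjusted p = 0.047) was lost in 8 of 15 alternatives, with adjusted p-values up to 0.20. Of the 42 other genes of the family, 1 was called higher and 14 lower in the mutant than in N2 at 34 °C, and 0 higher and 5 lower than in the transgene strain.

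Cytochrome P450 genes gave 2 of 66. cyp-14A5 had 18.8, 15.9 and 49.4 CPM in N2 at 34 °C, 28.3, 19.4 and 61.7 CPM in the transgene strain, and 99.7, 78 and 117 CPM in the mutant. The adjusted p was 0.019 against N2 and 0.093 against the transgene strain, and the latter was 8.9e-04 with the block. The call against N2 was lost without replicate 1 or 2 of N2, without replicate 3 of the mutant and in a fit of the 9 libraries at 34 °C alone, and over the alternatives the adjusted p reached 0.076. cyp-33C3 had 2.73, 2.84 and 8.95 CPM on average and was called against both strains (adjusted p = 0.0036 and 0.0097), the latter call being lost without replicate 2 of the transgene strain and in the 9 libraries alone (adjusted p up to 0.054). Of the other 64 genes 1 was called higher and 5 lower in the mutant than in N2, and 0 and 2 than in the transgene strain.

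The members pgp-5 and pgp-8 are neighbours on the X chromosome, 58 bases apart, in a family of 13 tested genes listed after the values were seen. At 34 °C pgp-5 had 3.07, 3.27 and 13 CPM in N2, 7.4, 4.55 and 39.4 CPM in the transgene strain, and 14, 21 and 82.3 CPM in the mutant. Replicate 3 was far above the others in each strain. Every mutant library was above those of N2, the transgene strain overlapped both, and neither comparison was called (adjusted p = 0.052 and 0.41, and 4.3e-04 and 0.024 with the block). By contrast pgp-8 had 2.16, 1.64 and 2.01 CPM, 1.56, 1.29 and 2.32 CPM, and 4.44, 5.1 and 3.5 CPM in the same order, without overlap and called against both strains (adjusted p = 0.0047 and 0.0045). Of the other 11 genes, 1 was called higher and 1 lower in the mutant than in N2, and 1 higher and 0 lower than in the transgene strain.

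Among C-type lectins 2 of 115 genes tested were members. clec-84, in a locus of 2 genes, had 14.7, 14 and 15 CPM in N2 at 34 °C, 16.6, 12.5 and 13.6 CPM in the transgene strain, and 38.1, 42.4 and 36.5 CPM in the mutant. The mutant was 2.68-fold over N2 and 2.74-fold over the transgene strain (adjusted p = 1.3e-06 and 2e-06). clec-233 had 2.45, 2.72 and 5.48 CPM on average and was called against both (adjusted p = 0.0039 and 0.017), and the latter call was lost without replicate 1 of the mutant or of the transgene strain and in the 9 libraries alone, with or without the block (adjusted p up to 0.11). Of the other 113, 17 were called higher and 10 lower in the mutant than in N2, and 6 and 1 than in the transgene strain.

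In the list of infection response genes, 2 of 65 tested were members, and they lie 8917 bases apart on chromosome IV. dod-17 had 14.5, 14.2 and 18.2 CPM in N2 at 34 °C, 16.3, 11.9 and 26.5 CPM in the transgene strain, and 38.6, 36.4 and 50.8 CPM in the mutant (adjusted p = 0.002 and 0.012). Its call against the transgene strain was lost without replicate 3 of the mutant, without replicate 1 or 2 of the transgene strain and in the 9 libraries alone (adjusted p up to 0.08). dod-22 had 4.04, 2 and 11.8 CPM, 4.95, 2.63 and 15.1 CPM, and 10.9, 8.35 and 19.2 CPM, with overlap between the strains and no call (adjusted p = 0.21 and 0.47, and 0.012 and 0.066 with the block). Of the other 63 genes, 7 were called higher and 6 lower in the mutant than in N2, and 2 higher and 0 lower than in the transgene strain.

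Other members with a known kind of product are named here after their values were seen. zip-8, a bZIP transcription factor gene, had 6.77 ± 2.49 CPM in N2 at 34 °C, 6.49 ± 2.27 CPM in the transgene strain and 25.3 ± 6.96 CPM in the mutant (adjusted p = 0.0014 and 0.0026). gcy-15, which encodes a receptor-type guanylyl cyclase, had 6.21, 6.34 and 7.09 CPM, 4.72, 3.92 and 4.27 CPM, and 13.8, 14.4 and 16.3 CPM. It was 2.27-fold over N2 and 3.44-fold over the transgene strain (adjusted p = 4.2e-05 and 1.4e-06), and its libraries hardly varied within a group.

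The proton-coupled myo-inositol transporter gene hmit-1.1, a member of the list of 8 osmotic response genes, had 9.76 ± 2.39, 10.9 ± 2.93 and 29.9 ± 4.57 CPM (adjusted p = 0.0015 and 0.0061). The other 7 genes of that list had 1 call higher and 2 lower against N2, and 0 either way against the transgene strain. gba-2, a glucocerebrosidase family gene, had 1.94, 1.6 and 5.06 CPM on average (adjusted p = 0.002 and 0.0013), and the F-box gene fbxa-74 had 5.64, 10.7 and 25.8 CPM (adjusted p = 6.2e-05 and 0.006, the latter call being lost in the 9 libraries alone). Of the other 198 F-box and MATH domain genes 30 were called higher and 11 lower in the mutant than in N2, and 7 and 10 than in the transgene strain. nlp-26, from 103 neuropeptide genes tested, was called against neither strain (adjusted p = 0.24 and 0.45), and of the other 102, 4 were called higher and 3 lower than in N2, and 3 and 1 than in the transgene strain.

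Of 170 serpentine chemoreceptor genes tested, in a list drawn up after the values were seen, 2 were members, srw-85 and srlf-34. srw-85 had 16.4, 14.1 and 33.5 CPM in N2 at 34 °C, 32.1, 22.9 and 58.8 CPM in the transgene strain, and 77, 57 and 92.7 CPM in the mutant, and was called against N2 (adjusted p = 0.006) but not against the transgene strain (adjusted p = 0.13), whose highest library lay above the lowest of the mutant. Of the other 168, 29 were called higher and 16 lower in the mutant than in N2, and 10 and 7 than in the transgene strain. The other gene family and pathway lists held no member, among them 133 cuticle collagens, 19 molting cycle genes, 70 lysozymes and antimicrobial peptides, 66 heat shock proteins and cochaperones, 77 genes of lipid metabolism, 24 insulin-like peptides, 221 nuclear hormone receptors, 70 hedgehog-related and patched-related genes, 35 histones and 23 DNA synthesis genes. With 78 members among 14219 genes tested, lists of these sizes would hold few or none, so nothing is read from their absence.

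The largest log2 fold change over N2 at 34 °C was that of W03F9.11 on chromosome V, in a locus of 2 genes. It had 3, 0 and 22 fragments in N2, 32, 24 and 82 in the transgene strain, and 237, 190 and 375 in the mutant. The log2 fold change of 4.25 (adjusted p = 0.0082) rests on these few N2 fragments and ran from 3.58 to 6.74 over the alternatives, and the call was lost in the 9 libraries alone (adjusted p = 0.05). Against the transgene strain it was 1.90 and not called (adjusted p = 0.17, and 0.021 with the block, which was lost with the block in the 9 libraries alone). Counts were low for Y20F4.8 too, with 2, 5 and 4 fragments in N2, 14, 10 and 2 in the transgene strain, and 23, 33 and 40 in the mutant (adjusted p = 0.001 against N2 and 0.021 against the transgene strain, the latter lost in 5 of 15 alternatives with values up to 0.13).

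Calls of other named members varied with single libraries. drd-50 was 9.27-fold over N2 (adjusted p = 0.0014) and 5.6-fold over the transgene strain, where the adjusted p of 0.0097 became 0.052 without replicate 2 of the transgene strain. Y87G2A.16 had 5.08, 5.78 and 16.7 CPM in the mutant at 34 °C and 1.89, 1.11 and 4.06 CPM in the transgene strain. Its call there (adjusted p = 0.036) was lost without replicate 3 of the mutant, without replicate 1 or 2 of the transgene strain and in the 9 libraries alone (adjusted p up to 0.18). Y8A9A.2 had 5.82, 3.39 and 11.4 CPM in the mutant, 0.628, 0.665 and 3.14 CPM in N2, and 0.707, 0.312 and 2.32 CPM in the transgene strain. Its calls (adjusted p = 0.034 and 0.036) were lost in 5 of 15 alternatives each, with values up to 0.14 and 0.18. Y17G7B.8, from a locus of 3 genes, was called against both strains in all alternatives (adjusted p = 7e-04 and 0.0045). F39F10.4 was called against N2 (adjusted p = 0.023, lost in 4 of 15 alternatives with values up to 0.09). Against the transgene strain it was not called (adjusted p = 0.077, and 0.0032 with the block).

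Many members varied in step between replicates of the same number. Replicate 3 was the highest of its group for 64 members in N2 at 20 °C, 66 in N2 at 34 °C, 50 in the mutant at 20 °C, 54 in the mutant at 34 °C, 64 in the transgene strain at 20 °C and 62 in the transgene strain at 34 °C. These are 64.1% to 84.6% of the members, against 37.3% to 41.1% of all genes tested. The median coefficient of variation of the members within a group ran from 12.9% in the mutant at 20 °C to 36.6% in the transgene strain at 34 °C, and over all genes from 9.37% to 17.9%. The rule itself favours genes with close mutant libraries at 20 °C. All genes were not matched to the members by level, which had medians of 4.01 to 5.56 CPM in the groups of the other strains. The summed level of the 77 members other than rps-13 was 701, 681 and 1020 CPM in N2 at 34 °C, 877, 737 and 1377 CPM in the transgene strain, and 2750, 2782 and 3269 CPM in the mutant. The mutant sums stayed above those of the other strains in every replicate.

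Genes of the molting cycle, which oscillate with each larval stage, went the other way in replicate 3. The summed level of 19 measured genes of 20 in this list was 22095, 17794 and 11319 CPM in N2 at 34 °C, 13905, 17951 and 6104 CPM in the transgene strain, and 10153, 11214 and 3183 CPM in the mutant. It was thus lowest in replicate 3 of every strain and lower in the mutant than in the same replicate of the other strains. From replicate 1 to 2 this sum and that of the members both fell in N2 and both rose in the mutant. In the transgene strain they moved apart. Gene by gene at 34 °C, 4 of the 19 molting cycle genes were called lower in the mutant than in N2 (14.2% of all genes were) and 0 higher. Against the transgene strain 0 of them were called either way. The summed level of 6 hypodermis markers ran from 1532 to 4692 CPM in N2, 1000 to 3762 CPM in the transgene strain and 467 to 1564 CPM in the mutant, and that of 5 pharynx markers from 359 to 1038, 332 to 1429 and 888 to 1542 CPM. The hypodermis markers did not move together: 1 of 6 was called lower than N2 and 0 lower than the transgene strain. Their median log2 fold changes were −0.54 and −0.34, and the highest over N2 was 2.67. Of the 5 pharynx markers 0 were called either way against N2, and 1 was called higher and 0 lower than in the transgene strain. Sums of muscle and of intestine markers overlapped between the strains at 34 °C. Those of neuron markers ran from 768 to 848, 732 to 800 and 834 to 877 CPM. Germline markers summed to 259 to 335, 202 to 258 and 240 to 262 CPM. Dauer markers summed to 38.2 to 48.5 CPM in N2 at 34 °C, 34.7 to 37.8 CPM in the transgene strain and 24.1 to 31.6 CPM in the mutant. At 20 °C the order was reversed, with 53.1 to 55.4, 57.7 to 61.6 and 63.8 to 68.1 CPM. Of 2 dauer markers tested, 2 were called lower than N2 at 34 °C and 1 lower than the transgene strain. Sperm markers summed to at most 4.98 CPM in any library. Adult markers summed to 57.5 CPM in replicate 3 of N2 at 34 °C and to at most 8.48 CPM in any other library. The part of these differences in the members' levels was not tested.

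**Figure D3:**
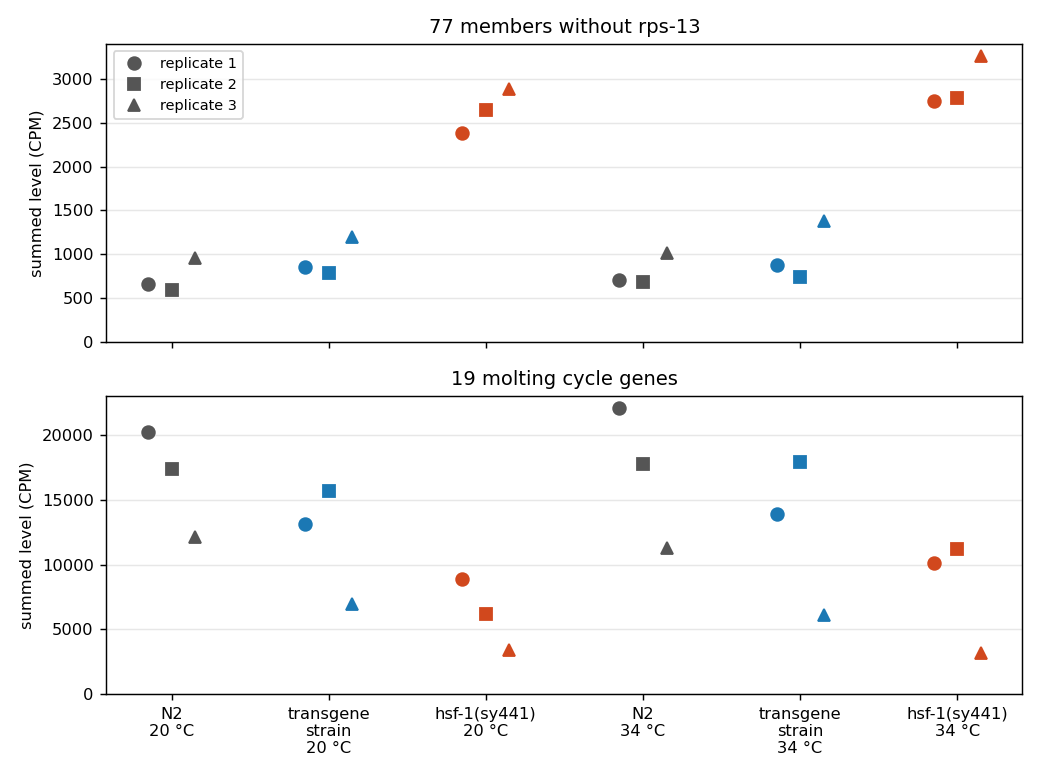
Summed level in CPM of the 77 members without rps-13 (top) and of 19 molting cycle genes (bottom) in each library, by group, with circles, squares and triangles for replicates 1, 2 and 3. Replicate 3 has the highest members' sum and the lowest molting sum in each of the 6 groups. At 34 °C the mutant sums of the members, from 2750 to 3269 CPM, exceed those of the other strains, which reach 1377 CPM. At 20 °C the mutant sums, from 2381 to 2893 CPM, had to be the higher ones, because the rule chose the genes by these libraries.

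With the replicate number as a block in the fit, 74 members were called higher in the mutant than in N2 at 34 °C and 71 higher than in the transgene strain, beside 61 and 47 without it, and 0 were lower. Calls rose over all genes too, to 22.4% higher than N2 and 10.9% higher than the transgene strain. With the block in the 9 libraries at 34 °C alone, a setting added after the data were seen, 74 and 66 members were called, beside 16.5% and 5.48% of all genes. Without replicate 3 of every group, added likewise, 75 and 72 members were called, beside 19.9% and 9.62% of all genes. Of the 17 members called against neither strain, 13 were called against N2 with the block, among them pgp-5, dod-22, pqn-37 and C01G10.5. The exceptions were srlf-34, srp-2, nlp-26 and F41G3.10. srlf-34 had 1.49 CPM in the mutant at 34 °C and 0.998 CPM in N2, after 23.7 and 8.97 CPM at 20 °C. F41G3.10 had 15.1, 2.51 and 56.5 CPM in N2 at 34 °C, 5.85, 3.34 and 18 CPM in the transgene strain, and 38.1, 36.9 and 51.3 CPM in the mutant, with an adjusted p of 0.014 against the transgene strain with the block, a call that was lost with the block in the 9 libraries alone.

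The transgene mean was above the N2 mean for 62 of 78 genes at each temperature. The share of all genes tested with this order was not counted, and the rule had used the libraries of the lower temperature. At 34 °C the median log2 fold change was 0.31, beside −0.01 for all genes. This varied with the libraries used: without replicate 3 of the transgene strain the median was −0.03, with 37 of 78 genes above 0. Without replicate 3 of every group it was 0.35, with 57 genes above 0, and with the block 0.32, with 62 above 0. It was 0.17 without replicate 2 of N2, 0.61 without replicate 3 of N2 and 0.52 without replicate 2 of the transgene strain. Only M01G12.9, R05D7.3 and R11E3.1 were called higher (3 genes, 3.85%, against 1.62% of all genes) and only gcy-15 lower (1 gene, 1.28%, against 1.09%). With the block the counts were 8 and 1, and 4.09% of all genes were called higher. In the 9 libraries alone 0 members were called either way, beside 0.381% of all genes higher. Every transgene library lay above every N2 library for 11 members (7.77% of all genes did) and below for 2 (7.5%). Of all calls in this comparison, 59.8% were higher in the transgene strain, and 81.2% with library totals alone.

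By chromosome, 24 members lie on V, 19 on II, 13 on IV, 11 on I, 7 on X and 4 on III. Chromosome II holds 24.4% of the members and 16.7% of the genes tested, chromosome V 30.8% and 21.2%, and chromosome III 5.13% and 15.3%. There are 7 pairs of members within 20000 bases of each other, and in 5 of them no other gene lies between: K01A2.4 and K01A2.3, drd-50 and F49F1.5, F41B5.6 and cyp-33C3, srw-85 and C25F9.11, and pgp-5 and pgp-8. How many such pairs 78 genes drawn from those tested would hold was not counted, so no clustering is read from them. Of the 78, 14 share a locus with other genes (17.9%, and 24.6% of the genes tested), and C34H4.2 lies in a locus of 10.

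M01G12.9, R05D7.3 and Y47H10A.5 lie on chromosome I near hsf-1, within a stretch of 297 kb (11891590 to 12188998) whose limits were set after its values were seen. M01G12.9 had 11.8, 15.2 and 16.1 CPM in N2 at 34 °C, 29.8, 27 and 43 CPM in the transgene strain, and 61.2, 92.7 and 87.1 CPM in the mutant, 3 levels without overlap. R05D7.3 had 2.93, 1.89 and 3.61 CPM, 4.48, 5.12 and 5.8 CPM, and 12.2, 12 and 12.3 CPM in the same order. Y47H10A.5 had 3.28, 2.35 and 16.1 CPM, 11, 5.75 and 20.9 CPM, and 32.2, 17.7 and 49.7 CPM, where every mutant library was above those of N2 but the transgene strain overlapped both.

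The same order of levels held for most genes around them. The stretch holds 41 genes tested, hsf-1 and the 3 members among them. Of these, 36 were called higher in the mutant than in N2 at 34 °C (87.8%, against 14.8% of all genes) and 1 lower. In the transgene strain 25 were called higher than in N2 (61%, against 1.62%) and 1 lower. Without hsf-1 the median fold change of the other 40 was 3.02 in the mutant over N2, 1.94 in the transgene strain over N2 and 1.53 in the mutant over the transgene strain. In the 300 kb on either side, with 23 and 20 genes tested, the median log2 fold changes of the mutant over N2 were 0.50 and 0.21, and those of the transgene strain over N2 were 0.15 and 0.07. The flank on the lower side was mixed, with 10 of its 23 genes called higher in the mutant than in N2. Among 883 windows of 100 kb with at least 8 tested genes, the 3 windows from 11900001 to 12200000 had the 3 highest medians in the mutant over N2 and in the transgene strain over N2. In the mutant over the transgene strain they ranked 4, 5 and 2. The gene just outside the threshold of 2 times at 20 °C, tmem-189, also lies in the stretch, with means of 51.8 CPM in N2, 110 CPM in the transgene strain and 210 CPM in the mutant at 34 °C.

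**Figure D4:**
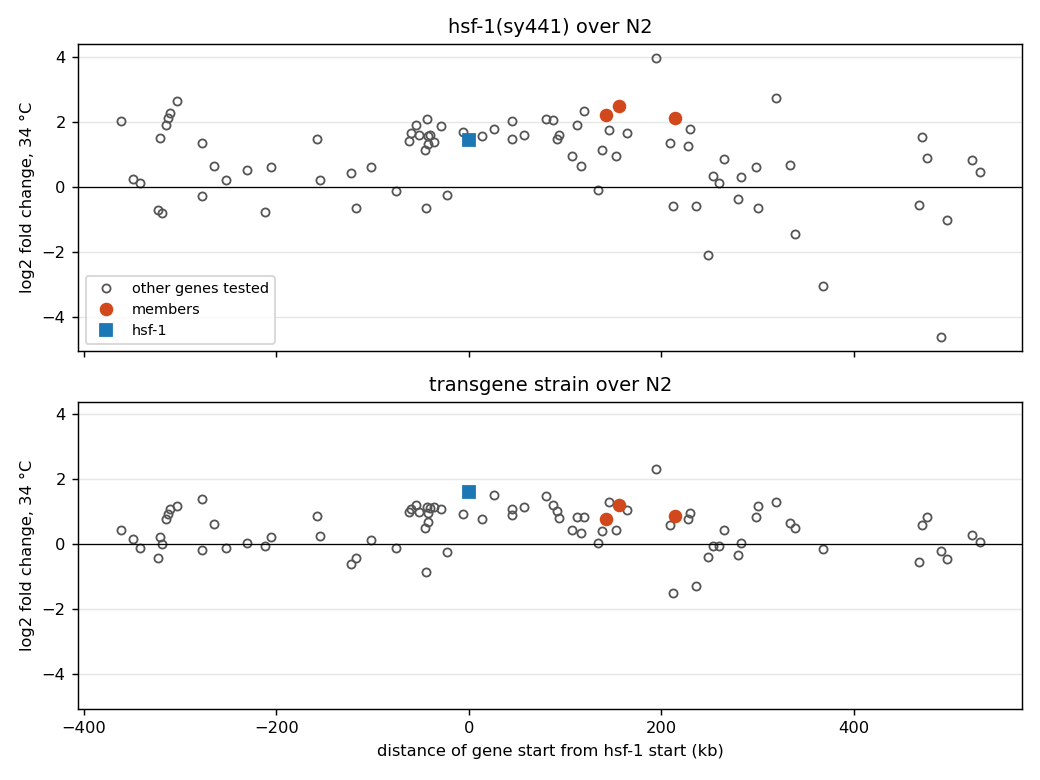
Log2 fold change at 34 °C of each tested gene around hsf-1 by the distance of its start from the start of hsf-1 in kb, for the mutant over N2 (top) and the transgene strain over N2 (bottom); filled circles are members, the square is hsf-1 and open circles are other genes. The genes of the 297 kb stretch, the 3 members included, lie mostly above 0, with medians of 1.59 in the top panel and 0.96 in the bottom panel.

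Another cluster of members lay on chromosome IV, where drd-50, F49F1.5 and R07C12.2 were the 3 members of the window from 4100001 to 4200000, the only window with as many. The window was picked for its members after the values were seen, and its counts and medians include these 3 genes, chosen as high in the mutant. Of its 18 genes tested, 10 were called higher in the mutant than in N2 at 34 °C (14.8% of all genes were). Higher than in the transgene strain were 6 (5.24% of all genes), while 0 were called higher in the transgene strain than in N2 (1.62%). The window's median log2 fold change was 1.02 over N2, rank 5 of 883, and 0.87 over the transgene strain, rank 1. R07C12.2, annotated as a pseudogene, had 7.81, 8.19 and 11.2 CPM in N2 at 34 °C, 9.34, 8.42 and 10.9 CPM in the transgene strain, and 22.6, 30.4 and 27.5 CPM in the mutant.

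The difference between temperatures is given without a test, because the choice used the libraries at 20 °C. At 34 °C the level was at least 2-fold higher than at 20 °C for 8 members in N2, 6 in the transgene strain and 1 in the mutant, and at least 2-fold lower for 6, 7 and 7. Of all 14219 genes tested, 897, 815 and 703 were at least 2-fold higher and 1226, 1245 and 986 at least 2-fold lower, in the same order. The rule chose genes high in the mutant and low in the other strains at 20 °C. This choice by itself favours rises in N2 and the transgene strain over rises in the mutant. The median log2 change from 20 °C to 34 °C was 0.16 in N2, 0.05 in the transgene strain and 0.13 in the mutant, beside 0.02, 0.02 and 0.05 for all genes. A change of at least 2-fold in all 3 strains was seen for F08G2.5, upward, and for C34H4.2, pqn-37, Y37H2A.14 and srlf-34, downward. For F08G2.5 the log2 changes were 2.55 in N2, 3.06 in the transgene strain and 1.41 in the mutant. For the prion-like glutamine and asparagine rich gene pqn-37 they were −1.84, −1.89 and −1.94.

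**Figure D5:**
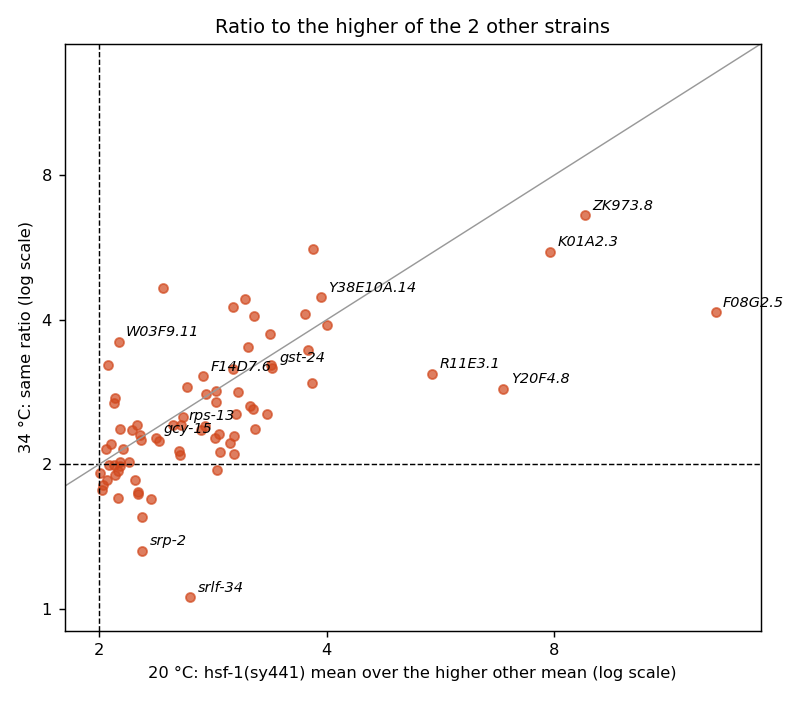
Ratio of the mutant mean to the higher of the other strain means for each member, at 20 °C (horizontal, which chose the genes) and at 34 °C (vertical), both on log scales; dashed lines mark 2 and the diagonal marks equal ratios. At 34 °C the ratios run from 1.06 (srlf-34) to 6.61 (ZK973.8) with a median of 2.39, and 60 of the 78 are at or above 2.

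The authors' deposited table of tests at 34 °C, made with Cuffdiff, lists 68 of the 78 members as higher in hsf-1(sy441) than in N2 at a q value under 0.05 (87.2%, against 5.95% of 14077 genes tested there). Against the transgene strain the authors' deposited table lists 63 as higher (80.8%, against 2.31% of 13993 genes). In neither comparison was a member listed as lower.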

How the data were processed

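Values were taken from tables of 18 RNA-seq libraries. The expected counts, or estimated counts, of fragments per gene and the FPKM values were deposited by the authors, made with TopHat2 and Cuffdiff on build ce10, per the submitters' processing notes, without versions. The authors' deposited table of tests holds log2 fold changes, p-values and q-values of the same software. Of 20389 genes, 114 with a failed status in some library, which held 6.11% to 7.75% of fragments, were left out. Names matched 97.5% of identifiers.

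Estimated counts, of which 92.43% were whole, were rounded. CPM used TMM factors. edgeR 4.0.16 (R 4.3.3) fitted its robust quasi-likelihood model to 6 groups and 14219 genes kept by filterByExpr, with Benjamini-Hochberg adjustment over all genes and calls under 0.05. The fit was also run on simulated counts of independent libraries with the same spread for all genes. That run does not test it on libraries that deviate together. The real libraries held 14.9 to 32.3 M fragments, and 0 pairs were identical. Alternatives were RLE factors, library totals, no filter, the 9 libraries at 34 °C, DESeq2 1.42.0, limma 3.58.1 on log2(FPKM + 0.1), a replicate block, and leaving out libraries. The labels number the replicates alike in each group. The deposited table numbers its libraries from 0 and the labels from 1, and they were matched in that order, which the sources do not state, so that the block rests on it. At 34 °C same-numbered libraries deviated together, with correlations across genes of 0.28 to 0.38 between N2 and hsf-1(sy441), 0.36 to 0.67 between hsf-1(sy441) and the transgene strain, and 0.43 to 0.79 between N2 and the transgene strain. At 20 °C this did not hold for replicate 2 of hsf-1(sy441), with −0.06 to N2 and 0.05 to the transgene strain, so the block was also fitted to the 9 libraries at 34 °C alone, a setting added after the data were seen.

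The members and gene lists were chosen with earlier results of these data known. The genes named are hsf-1, the 12 members with the largest ratio at 20 °C, the 6 with the highest mutant CPM at 20 °C, the 6 called members with the largest rise in each comparison of the mutant at 34 °C, up to 4 members of each list with at least 2, and the 3 genes on each side of the 2-fold threshold. All other members were named after their values were seen. Promoter sequences were not used here.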

Additional observations from a re-analysis of the deposited data

How the results depend on the processing

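All 78 genes lay above N2 and above the transgene strain under most alternatives at 34 °C, and at least 77 did under each. The number of members depended on the rule: 143 with FPKM in place of CPM, 204 at 1.5 times, 27 at 3 times, 210 at 1 CPM, 51 at 10 CPM, and 63 to 253 with 1 library left out, 253 without replicate 3 of the transgene strain. Called higher than N2 were 74 with the replicate block (22.4% of all genes), 74 with the block in the 9 libraries at 34 °C alone (16.5%), 75 without replicate 3 of every group (19.9%), 47 in the 9 libraries alone (6.33%), 67 with DESeq2 (15.5%) and 49 to 73 with 1 library left out (8.68% to 18.9%). Called higher than the transgene strain were 71 with the block (10.9%), 66 with the block in the 9 libraries alone (5.48%), 72 without replicate 3 of every group (9.62%), 33 in the 9 libraries alone (1.26%) and 35 to 56 with 1 library left out (2.43% to 7.01%). For the transgene strain against N2, 8 were higher with the block (4.09%), 5 with the block in the 9 libraries alone (1.16%), 5 with DESeq2 (3.09%), 1 with limma (0.851%), 0 in the 9 libraries alone (0.381%) and 1 to 3 with 1 library left out (0.725% to 3.0%). Lower were 2 with DESeq2, 0 with library totals, with limma, in the 9 libraries alone with or without the block, and without replicate 3 of every group, and 0 to 1 with 1 library left out. The cause of these differences was not tested. Members with few fragments limit the precision of single folds.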
